A study of Mus musculus with 6 samples.

Results

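The genes described here are 10 regulators of the hormone-sensing luminal cell: the receptors Esr1, Pgr and Prlr, the transcription factors and cofactors Foxa1, Cited1, Gata3 and Tbx3, the signal transducer Stat5a, and the hormone targets Tnfsf11 and Greb1. They were taken by symbol from the deposited count table, which lists 34590 genes, and all 10 were found. In each of 3 host mice, the left inguinal gland (gland number 4) was engrafted with WT.EGFP+ epithelium and the right one with Adamts18-/-.EGFP+ epithelium, giving 3 glands per genotype. The mutant allele lacks the exons for the catalytic site of the secreted protease Adamts18 in every cell of the donor, whereas the WT donors carry both functional alleles. Both donor epithelia carry the EGFP transgene, which is driven by the chicken β-actin promoter, and come from mice on a C57BL/6JOlaHsd background. The fat pads had been cleared of the host's own epithelium, so that stroma, vessels and circulating hormones were those of the same WT host on both sides. The 3 pairs came from separate experiments, each with its own donor. Because every Adamts18-/- graft was on the right, genotype and body side cannot be told apart, and the age of the hosts at harvest was not given in the sources used here.

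The mammary epithelium has an inner luminal and an outer myoepithelial layer. A subset of luminal cells, the hormone-sensing cells, carries the nuclear receptors for estrogen and progesterone and the receptor for prolactin. Estrogen acts through Esr1 to induce Pgr and other targets, with Foxa1 and Gata3 as the factors that keep the chromatin accessible to the receptor. Progesterone, in turn, induces secreted signals such as Tnfsf11 and Wnt4 that act on neighboring cells, and prolactin activates Stat5a through the kinase Jak2. These circuits drive ductal growth in puberty, side branching in the cycling adult and alveolar development in pregnancy.

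The libraries held 53875123 to 71595924 reads on genes, so that 3 reads correspond to 0.0430 to 0.0574 CPM (counts scaled to library size), and all members lay above this level. The label of the samples describes sorted GFP-positive epithelial cells, whereas the study's text speaks of whole glands. Stromal markers were abundant in every library: fibroblast markers (8 genes, led by Col3a1) summed to 8966 to 12018 CPM in WT and 11016 to 12310 CPM in Adamts18-/- glands, adipocyte markers (9 genes, led by Fabp4) to 8326 to 16376 and 6509 to 17172 CPM, endothelial markers (8 genes, led by Pecam1) to 763 to 1056 and 648 to 1059 CPM, and macrophage markers (7 genes, led by Lyz2) to 1691 to 2779 and 1944 to 2909 CPM. No marker of these lists was at 0 in any library. The libraries were hence treated as mixtures of epithelium and stroma, in which fewer cells of a type and less RNA per cell cannot be told apart. Adamts18 itself was read 252, 608 and 383 times on the WT side of mice 1, 2 and 3, and 144, 295 and 202 times in their Adamts18-/- glands. Its log2 fold change was −0.83 ± 0.19 (SE; unadjusted p = 0.00922, edgeR), and it was lower on the mutant side in 3 of 3 mice. The remaining reads do not test the deletion, because the count covers the whole gene and the WT host stroma is part of the library.

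To compare the genotypes within each host, counts were fitted for all 17345 genes that passed the filter on low counts, with the mouse as a block, and a gene was called when its fold change was below 0.8 or above the reciprocal of 0.8 with an unadjusted p under 0.05, the thresholds of the study. All 10 members passed the filter. Of these, 5 were called lower in Adamts18-/- epithelium (Cited1, Prlr, Gata3, Foxa1 and Tbx3), and 0 were called higher by edgeR, by DESeq2 or by limma-voom. Among all genes tested, 1.84% were called lower and 1.17% higher. The fitted value of each of the 10 members was below 0, with a median log2 fold change of −0.34 against 0.00065 for all genes. For 3 members (Prlr, Cited1 and Gata3) all Adamts18-/- values were below all WT values, a pattern seen in 2.63% of all genes, and 6 members (those called and Stat5a) were lower in each of the 3 mice, compared with 12.7% of all genes. After Benjamini-Hochberg adjustment by edgeR, 0 of the 17345 genes had an adjusted p under 0.05 (the smallest was 0.771, that of Cited1), although 670 had an unadjusted p under 0.05. DESeq2 gave 71 such genes and limma-voom 0. Among the members, DESeq2 gave Cited1 an adjusted p of 9.45e-18 and Prlr one of 0.00623. The calls of single genes are thus calls at unadjusted thresholds. Without mouse 2, 3 members were called (Prlr, Foxa1 and Cited1).

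**Figure D1:**
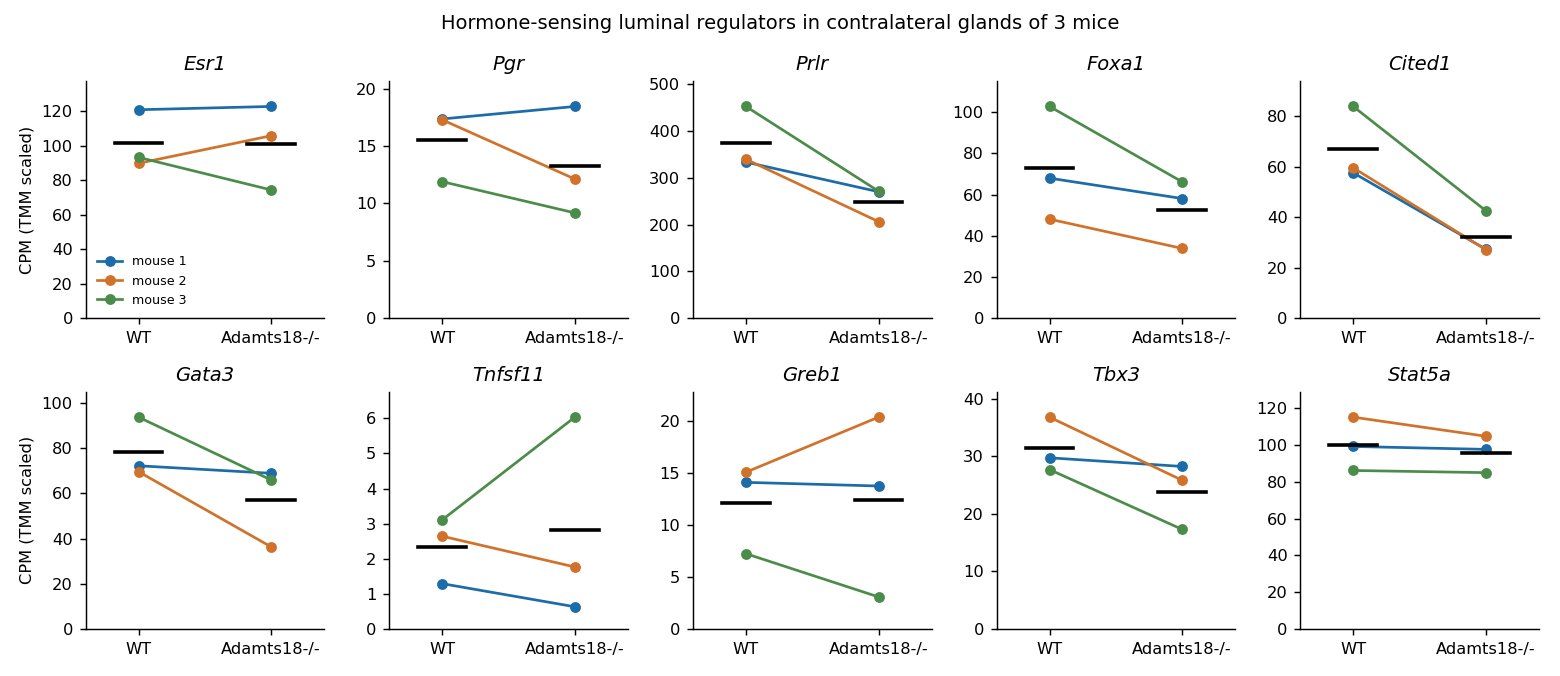
Level of each of the 10 members in CPM (vertical axis, from 0) in the WT and Adamts18-/- gland of each mouse. Points are single glands, colored lines join the glands of one mouse and black bars are the mean of 3 glands; the lines of Cited1 fall in each mouse, whereas those of Greb1, Esr1 and Tnfsf11 go up in some mice and down in others.

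Because 5 members were called in the same direction, the promoters of the members were searched for sites of the estrogen receptor and of forkhead, Stat5, GATA and Tead factors, in windows of 300 bases (250 before and 50 after the annotated start) from RefSeq on GRCm38.p6. Windows were at hand for 9 of the 10 members, all but Tbx3. In all, 16 windows were searched, with 3 each for Cited1 and Prlr. For each called member with a match, 1 window is printed here, and capitals mark the matches. Another window of Cited1 (chrX:102250727-102251026) also held a match and is not printed. For Cited1 (chrX:102252132-102252431, minus strand), Foxa1 (chr12:57546062-57546361, minus strand) and Gata3 (chr2:9878551-9878850, minus strand) the first window is given, and for Prlr the window of its second start (chr15:10223656-10223955, plus strand), since the first held none.
Cited1: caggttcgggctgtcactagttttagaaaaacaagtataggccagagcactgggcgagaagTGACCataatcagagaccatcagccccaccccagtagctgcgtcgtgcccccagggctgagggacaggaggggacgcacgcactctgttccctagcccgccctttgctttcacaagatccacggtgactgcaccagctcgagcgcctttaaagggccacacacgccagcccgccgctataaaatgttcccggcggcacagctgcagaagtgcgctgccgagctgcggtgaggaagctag
Foxa1: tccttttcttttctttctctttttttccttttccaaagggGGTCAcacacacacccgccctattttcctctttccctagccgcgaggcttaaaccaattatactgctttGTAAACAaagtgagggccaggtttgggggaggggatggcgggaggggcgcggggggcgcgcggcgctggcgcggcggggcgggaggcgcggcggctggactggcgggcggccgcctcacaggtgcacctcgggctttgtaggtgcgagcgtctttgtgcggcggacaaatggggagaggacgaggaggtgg
Gata3: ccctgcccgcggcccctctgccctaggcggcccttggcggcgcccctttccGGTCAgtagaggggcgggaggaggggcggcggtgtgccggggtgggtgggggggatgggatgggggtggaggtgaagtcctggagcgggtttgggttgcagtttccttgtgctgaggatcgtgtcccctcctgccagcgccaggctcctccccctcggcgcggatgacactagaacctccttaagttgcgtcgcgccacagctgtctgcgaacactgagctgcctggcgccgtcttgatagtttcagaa
Prlr: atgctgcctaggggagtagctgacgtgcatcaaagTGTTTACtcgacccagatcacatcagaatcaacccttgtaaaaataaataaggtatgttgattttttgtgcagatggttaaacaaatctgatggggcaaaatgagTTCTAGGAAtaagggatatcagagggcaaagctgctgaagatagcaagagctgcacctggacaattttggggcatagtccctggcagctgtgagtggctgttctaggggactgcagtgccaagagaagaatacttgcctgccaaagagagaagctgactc

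The core of the estrogen response element (GGTCA, on either strand) occurred in the first window of 6 of the 9 members, namely Cited1, Foxa1 and Gata3, which were called, and Esr1, Greb1 and Stat5a, which were not. It was present in 40.5% of 32851 promoters in the table. The full palindromic estrogen response element was found in 0 of the 9 first windows and in 0.07% of all promoters. The forkhead site (TGTTTAC) was found in the first window of Foxa1 itself and in 3.65% of promoters, and also in the second window of Prlr, beside a Stat5 site (TTCNNNGAA, 8.3% of promoters). GATA sites (AGATAA, 11.2% of promoters) and Tead sites (GGAATG, 14.7% of promoters) were in none of the first windows. The core motif is part of the full element, no matches overlap in the printed windows, and a Stat5 and a Tead match overlap in the second window of Esr1. A match of such short letters does not show binding. The core motif was in the first window of 3 called members and of 3 that were not called.

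Among the factors and cofactors, Cited1 differed most. Cited1 is a transcriptional cofactor without a DNA-binding domain that enhances the activity of the estrogen receptor and is required for normal ductal growth in puberty. Its first promoter window, shown above, holds the core motif on the strand opposite to the gene. It is encoded on chromosome X (chrX:102247381-102252181, minus strand, GRCm38). Its level was 57.6, 59.6 and 83.9 CPM on the WT side of mice 1, 2 and 3, and 27.3, 27.2 and 42.6 CPM in the contralateral Adamts18-/- glands. Every mutant gland was below every WT gland, and the difference was nearly the same in the 3 hosts, with log2 values of −1.08, −1.13 and −0.98. The mean fell from 67.0 ± 14.6 to 32.3 ± 8.85 CPM (SD, n = 3 each). The log2 fold change was −1.06 ± 0.073 (SE; unadjusted p = 4.45e-05, adjusted p = 0.771, edgeR), the smallest p of all genes tested. Genotype accounted for 78.8% of the variance of its log2 CPM and the mouse for nearly all of the rest, whereas the medians over all genes were 5.98% and 67.3%. Cited1 was called lower under each of the 13 alternative fits and scalings, with log2 fold changes between −1.10 and −0.57.

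Foxa1, the pioneer factor of the estrogen receptor, is a gene on chromosome 12 (chr12:57540628-57546916, minus strand). It was at 67.9, 48.1 and 103 CPM in WT and at 58.1, 33.9 and 66.2 CPM in Adamts18-/- glands of mice 1, 2 and 3. The groups overlapped, but each mutant gland was below its own WT partner (log2 differences of −0.23, −0.50 and −0.63). The log2 fold change was −0.46 ± 0.10 (unadjusted p = 0.00737, adjusted p = 0.987, edgeR). Without the mouse as a block, it was −0.47 with an unadjusted p of 0.238, so that the call rests on the pairing.

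Gata3, the zinc finger factor that specifies and maintains the luminal fate, lies on chromosome 2 (chr2:9857078-9890034, minus strand). Its values were 72.2, 69.6 and 93.7 CPM in WT, and 68.9, 36.3 and 65.9 CPM in Adamts18-/- glands. The highest mutant value was just below the lowest WT value, and the difference was small in mouse 1 (−0.068) and larger in mice 2 and 3 (−0.94 and −0.51). Its log2 fold change was −0.50 ± 0.18 (unadjusted p = 0.0384, adjusted p = 0.987, edgeR). The call was lost without mouse 2 (−0.29) and without mouse 3 (−0.49, unadjusted p = 0.0624).

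Tbx3 encodes a T-box repressor needed to form the mammary placode, and marks hormone-sensing cells in the adult (chr5:119670669-119684724, plus strand). It was at 29.7, 36.8 and 27.7 CPM in WT and at 28.2, 25.8 and 17.3 CPM in Adamts18-/- glands. As with Gata3, mouse 1 showed little difference (−0.075), compared with −0.51 and −0.68 in mice 2 and 3. The fitted log2 fold change was −0.42 ± 0.14 (unadjusted p = 0.0309, adjusted p = 0.987, edgeR), and the call was likewise lost when mouse 2 (−0.38) or mouse 3 (−0.29) was left out.

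Of the 3 receptors, Prlr was the one called. The prolactin receptor (chr15:10177238-10349180, plus strand) is a cytokine receptor of luminal cells. Prlr was at 334, 340 and 453 CPM in WT, and at 270, 207 and 272 CPM in Adamts18-/- glands. The groups did not overlap, and the mutant side was lower in each host, by −0.30, −0.72 and −0.74 on the log2 scale. The mean was 375 ± 67.0 CPM in WT and 249 ± 37.2 CPM in mutant glands (SD, n = 3 each). This corresponded to a log2 fold change of −0.59 ± 0.12 (unadjusted p = 0.00607, adjusted p = 0.987, edgeR).

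Esr1, the receptor that mediates the response to estrogen in epithelium and is also expressed in the mammary stroma, did not differ detectably (chr10:4611593-5005614, plus strand). It was at 121, 89.8 and 93.3 CPM in WT and at 123, 106 and 74.4 CPM in Adamts18-/- glands. The pairs went in different directions, with log2 differences of 0.023, 0.24 and −0.33. The log2 fold change of −0.022 ± 0.12 had a 95% interval of −0.35 to 0.30 (unadjusted p = 0.865, edgeR). The values fitted for Prlr, Gata3, Foxa1 and Tbx3 lay outside this interval, but their own 95% intervals overlapped it. Differences between members were not tested.

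Pgr, the progesterone receptor and a target of Esr1, is located on chromosome 9 (chr9:8899833-8968611, plus strand). Its level was 17.4, 17.3 and 11.9 CPM in WT and 18.5, 12.1 and 9.18 CPM in Adamts18-/- glands. It was lower on the mutant side in mice 2 and 3 (−0.51 and −0.37) but not in mouse 1 (0.088). The log2 fold change of −0.27 ± 0.15 did not pass the test (unadjusted p = 0.142, edgeR), and its 95% interval was −0.66 to 0.13.

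Stat5a, the factor that is activated below Prlr and is required for alveolar differentiation, was the most even member (chr11:100859351-100885169, plus strand). It was at 99.3, 115 and 86.2 CPM in WT and at 97.7, 105 and 85.0 CPM in Adamts18-/- glands. Every mutant gland was slightly below its partner, while the groups overlapped almost fully. The log2 fold change was −0.060 ± 0.066 with a 95% interval of −0.23 to 0.11 (unadjusted p = 0.407, edgeR). The values fitted for Prlr, Foxa1, Gata3 and Tbx3 lay outside it. The intervals of Foxa1, Gata3 and Tbx3 overlapped that of Stat5a and the interval of Prlr did not, and these differences were not tested.

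The 2 hormone targets varied more between pairs than between genotypes. Tnfsf11 encodes RANKL, the secreted mediator of progesterone action on neighboring luminal cells (chr14:78277445-78308043, minus strand). It was at 1.29, 2.64 and 3.11 CPM in WT and at 0.631, 1.77 and 6.04 CPM in Adamts18-/- glands. The mutant side was lower in mice 1 and 2 (−0.99 and −0.57) and higher in mouse 3 (0.95). The log2 fold change was −0.18 ± 0.44 (unadjusted p = 0.695, 95% interval −1.33 to 0.96, edgeR), although the mean CPM was higher in the mutant group (2.81 ± 2.85 against 2.35 ± 0.944, SD, n = 3 each). Without mouse 3, Tnfsf11 was called lower (−0.77 ± 0.25). T cells also express this ligand, and T cell markers (8 genes, led by Lck) summed to 540 CPM in the Adamts18-/- gland and 193 CPM in the WT gland of mouse 3, compared with 30.8 to 73.3 CPM in the other 4 glands. None of these 8 markers was called, and their part in the Tnfsf11 values was not tested.

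Greb1, an estrogen-induced cofactor that binds the estrogen receptor, lies on chromosome 12 (chr12:16670615-16800886, minus strand). The levels were 14.1, 15.1 and 7.23 CPM in WT and 13.7, 20.3 and 3.08 CPM in Adamts18-/- glands. The pairs showed no difference in mouse 1 (−0.036), a higher mutant value in mouse 2 (0.43) and a lower one in mouse 3 (−1.22). The fitted value was −0.25 ± 0.34 (unadjusted p = 0.493, 95% interval −1.15 to 0.64, edgeR), and without mouse 3 it was 0.21. A direction for Greb1 or Tnfsf11 was therefore not resolved with 3 pairs.

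**Figure D2:**
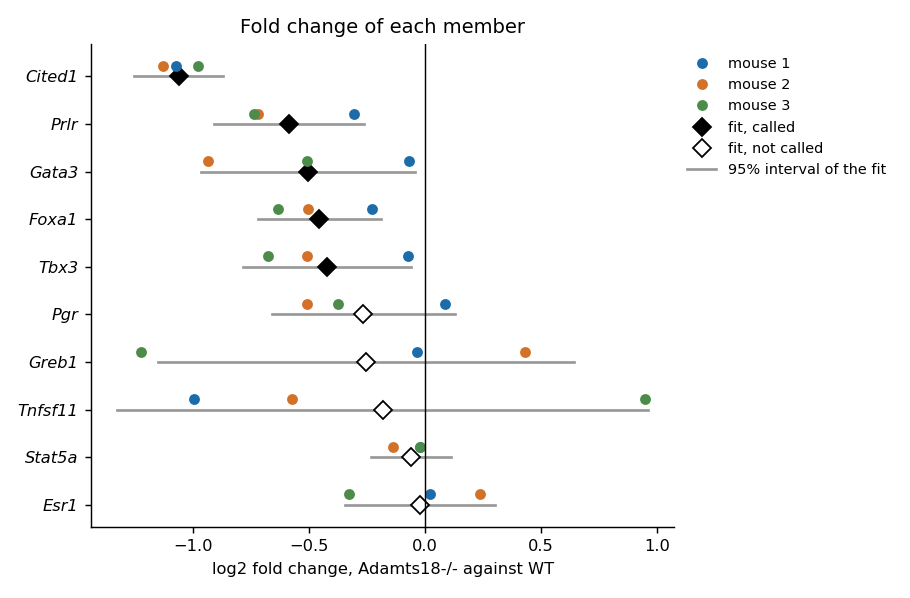
Log2 fold change of each member, Adamts18-/- against WT (horizontal axis). Diamonds are the fitted values (filled where called), gray lines their 95% intervals and colored points the difference within each mouse; the 3 points of Cited1 lie between −1.13 and −0.98, and those of Tnfsf11 and Greb1 on both sides of 0.

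Next, the variation between hosts was examined, because both glands of a mouse share circulating hormones, age and experiment. No member had an adjusted p under 0.05 for the host mouse (0.0592 to 0.275, edgeR with the 3 mice tested together), compared with 0.628% of all genes. At an unadjusted p under 0.05 there were 7 of 10 members and 27.2% of all genes. The mouse accounted for 93.0% of the variance of Stat5a, 82.7% of that of Greb1, 81.7% of that of Tnfsf11, 78.8% of that of Esr1, 75.3% of that of Foxa1 and 74.9% of that of Pgr. Foxa1 was highest in mouse 3 and lowest in mouse 2 in both genotypes. Greb1 had the opposite order, with its lowest values in mouse 3 on both sides. The remaining members had lower shares, namely 44.2% for Gata3, 43.3% for Tbx3 and 22.2% for Prlr, with Cited1 as given above. The median difference of the 10 members was −0.071 in mouse 1, −0.51 in mouse 2 and −0.57 in mouse 3 on the log2 scale, so that the members as a whole differed mainly in the latter hosts. Cited1, by contrast, was lower in mouse 1 by as much as in the others.

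Levels were compared between members per length, as CPM per kb of annotated exon. The mean over the 6 glands was 28.3 for Cited1, 20.4 for Prlr, 18.9 for Foxa1, 17.0 for Gata3 and 13.7 for Stat5a. Neighbors within this group had overlapping ranges. Esr1 (7.41) and Tbx3 (4.16) came next, followed by Pgr (1.68), Greb1 (1.28) and Tnfsf11 (1.15). The ranges of neighbors were separate only between Stat5a and Esr1, and between Tbx3 and Pgr. When the length of the longest transcript was used, Stat5a came before Gata3 and Foxa1, and the other positions did not change.

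**Figure D3:**
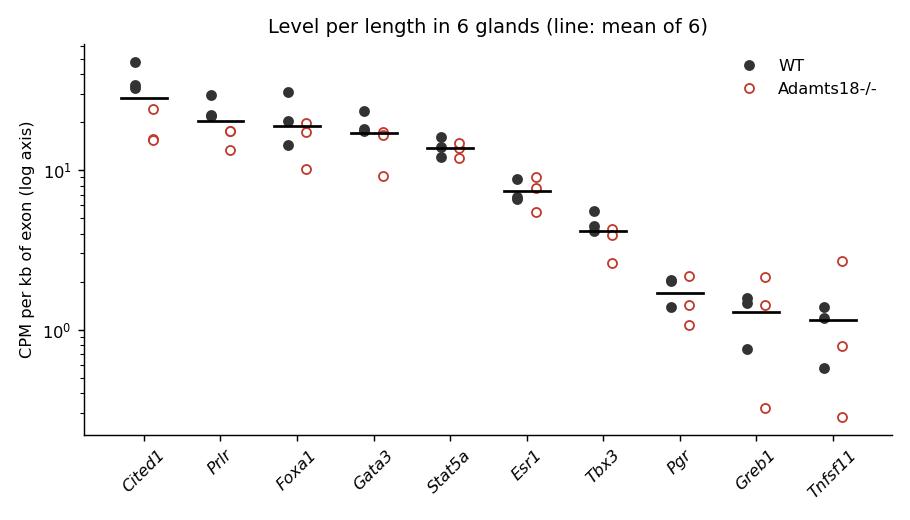
CPM per kb of exon (log axis) of each member, ordered by its mean over 6 glands (line). Filled points are WT and open points Adamts18-/- glands; the values step down between Stat5a and Esr1 and between Tbx3 and Pgr.

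The members were then set beside the remaining epithelium of the same glands, because the libraries mix epithelium and stroma. All 24 pan-epithelial markers (such as Epcam, Cdh1 and the luminal keratins, led by Krt19) were fitted lower in Adamts18-/- glands and 8 of them were called, with a median log2 fold change of −0.38. Their summed level was 1982 to 2792 CPM in WT and 1550 to 1976 CPM in mutant glands. All 4 luminal keratins were called lower (median −0.48), as were 9 of 11 myoepithelial markers (led by Acta2; median −0.54; sums of 1320 to 2254 and 888 to 1632 CPM). Secretory luminal markers had a median of −0.28, with 1 of 14 called (Elf5, in a list led by Mfge8). All 9 adipocyte markers (median −0.13) and all 8 endothelial markers (median −0.17) were also fitted lower, with 0 called. Of the fibroblast markers 4 were fitted lower and 4 higher, and of the macrophage markers 5 and 2. All T cell, B cell, skeletal muscle and erythroid markers were fitted higher. By mouse, the median difference of the pan-epithelial markers was 0.020, −0.75 and −0.48 in mice 1, 2 and 3. That of the luminal keratins was −0.17, −0.67 and −0.58, and that of the myoepithelial markers −0.28, −0.49 and −0.72. As for the members, the difference was thus smallest in mouse 1, where it was near 0 for the pan-epithelial list and below 0 for the keratins and the myoepithelial markers. Skeletal muscle markers (8 genes, led by Myh4) reached 11041 and 10922 CPM in the mutant glands of mice 1 and 2, compared with 287 to 2808 CPM in the other 4 glands, and none of them was called. B cell markers (5 genes, led by Cd79a) reached 117 CPM in WT and 540 CPM in mutant glands, both in mouse 3, and erythroid markers (3 genes, led by Hba-a1) ranged from 102 to 224 and from 158 to 181 CPM, with none called. The part of these cells in the values of the members was not tested.

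When the libraries were scaled to the 24 pan-epithelial markers instead of all genes, the median of all genes moved to 0.38, and the median of the members to 0.033. Cited1 was then the only member called (−0.68 ± 0.34, unadjusted p = 0.0422, edgeR). Prlr (−0.21 ± 0.38), Gata3 (−0.12 ± 0.34), Foxa1 (−0.076 ± 0.34) and Tbx3 (−0.041 ± 0.32) were no longer called. Scaling to the 4 luminal keratins moved the median of all genes to 0.49 and gave Cited1 a log2 fold change of −0.57 ± 0.22 (unadjusted p = 0.0107, edgeR). Esr1 was then called higher (0.47 ± 0.23, unadjusted p = 0.0409, edgeR), as were 52.9% of all genes. The value of Esr1 lay below the median of all genes under this scaling. Set against the median pan-epithelial marker of the same mouse, Cited1 was lower in 3 of 3 mice, with log2 differences of −1.10, −0.38 and −0.50, and so was Gata3, with −0.088, −0.18 and −0.032. Prlr was lower in mice 1 and 3 (differences of −0.32 and −0.26) and not in mouse 2 (0.036). Set against the median luminal keratin, Cited1 was again lower in 3 of 3 mice (−0.90, −0.46 and −0.40), as was Prlr (−0.13, −0.046 and −0.16), whereas Gata3 was lower in 1 of 3 (0.10, −0.27 and 0.074). Relative to the epithelial markers, Cited1 was thus called at unadjusted thresholds only. Its adjusted p was 0.522 under pan-epithelial and 0.0608 under keratin scaling (edgeR). Prlr, Gata3, Foxa1 and Tbx3 were not called under either scaling. The standard errors under these scalings are moderated across genes, so that they are not the spread of the 3 differences alone.

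**Figure D4:**
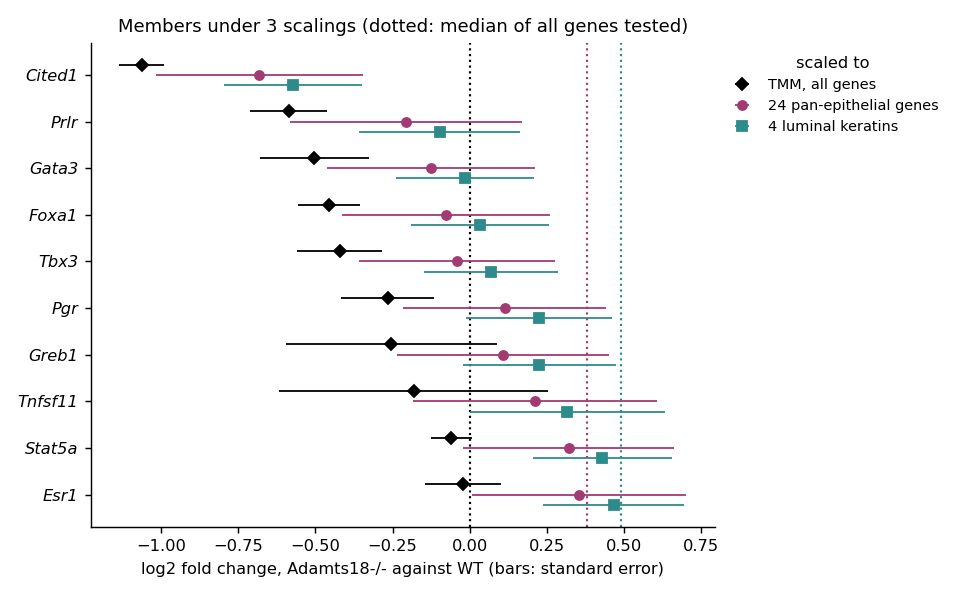
Log2 fold change of the members (horizontal axis, bars are standard errors) when libraries were scaled to all genes, to 24 pan-epithelial genes or to 4 luminal keratins. Dotted lines mark the median of all genes under each scaling (0.00065, 0.38 and 0.49); Cited1 stays below 0 under each, whereas Foxa1 and Tbx3 come to lie near 0.

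To see whether the hormone pathways around these genes moved, lists of pathway genes were counted in the same fit. These lists share 1 to 8 genes with the members. Among 20 estrogen response genes, 3 were called lower and 1 higher (median −0.057), against 1.84% and 1.17% of all genes. Those lower were the keratin Krt19 (−0.62 ± 0.12), the cadherin Celsr2 (−0.37 ± 0.14) and the potassium channel Kcnk5 (−0.52 ± 0.18). Krt19 is a luminal keratin that is also among the epithelial markers above. Celsr2 was lower in mice 2 and 3 (−0.51 and −0.59) but not in mouse 1 (0.00095). The early response factor Egr3 was higher (0.73 ± 0.17), with 7.09, 5.53 and 6.54 CPM in mutant against 4.97, 3.56 and 3.14 CPM in WT glands, and these groups did not overlap. The most abundant genes of the list, the chemokine Cxcl12 (0.0093 ± 0.10) and Krt19, thus showed no common direction. The epidermal growth factor ligand Areg, which is the essential target of Esr1 in puberty, was not called (0.61 ± 0.33), and neither were Pgr and Greb1. Without mouse 3, 2 genes of the list were called in all. The direction depended on the scaling, with 0 genes lower and 2 higher under pan-epithelial scaling, and 0 lower and 8 higher under keratin scaling, where 7.66% and 52.9% of all genes were called higher.

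Of 15 progesterone response genes, 2 were called lower and 0 higher (median −0.13). Wnt4, which mediates side branching downstream of the progesterone receptor, was at 19.7, 29.1 and 29.4 CPM in WT and at 18.5, 21.2 and 19.9 CPM in Adamts18-/- glands (−0.37 ± 0.12). It was lower in each of the 3 mice, again least in mouse 1. The alveolar factor Elf5 was called lower as well (−0.57 ± 0.20). It was lower in mice 2 and 3 (−0.91 and −0.81) but not in mouse 1 (0.0067). The most abundant genes of this list, Cxcl12 and the glucocorticoid-responsive gene Tsc22d3 (−0.032 ± 0.11), are also expressed outside the epithelium and did not pass the test. The count depended on single hosts, with 4 genes called without mouse 1 and 0 without mouse 2. Under pan-epithelial scaling, 0 genes of this list were lower and 1 was higher, and under keratin scaling 0 were lower and 2 higher. Of all genes, 7.66% and 52.9% were called higher under these scalings.

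Among 16 prolactin signaling genes, 2 were called lower (Prlr and Elf5) and 0 higher, with a median of −0.049. Without the 2 members in this list, 1 of 14 was called lower, with a median of −0.019. The components between receptor and nucleus were not called in these mixtures of epithelium and stroma. The kinase Jak2 was at 0.12 ± 0.075, Stat5b at 0.11 ± 0.073 and Stat5a as given above. The share of the epithelium in these values was not tested. The feedback inhibitor Socs2 was at 0.11 ± 0.074 and Cish at 0.0015 ± 0.18. The growth hormone receptor Ghr (−0.086 ± 0.14), the most abundant gene of the list before Prlr, was not called either. Here too, 4 genes were called without mouse 1 and 1 without mouse 2. With scaling to pan-epithelial markers 0 were lower and 1 was higher, and with scaling to keratins 0 were lower and 6 higher. The shares of all genes called higher were 7.66% and 52.9%.

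In the list of steroid receptors and their coregulators, 4 of 27 genes were called lower and 0 higher (median −0.073). These were Cited1, Foxa1, Gata3 and the AP-2 factor Tfap2c (−0.54 ± 0.17). Without the 6 members in this list, 1 of 21 was called lower, with a median of −0.015. The most abundant genes of the list, the corepressor Ncor1 (0.031 ± 0.099) and the glucocorticoid receptor Nr3c1 (0.029 ± 0.086), were close to 0 and were not called. The relatives of Cited1 were not called, with −0.25 ± 0.077 for Cited2, whose fold change lay inside the threshold, and −0.39 ± 0.31 for Cited4. Without mouse 2, 2 genes of this list were called. Pan-epithelial scaling left 1 gene lower and 0 higher, whereas keratin scaling gave 1 lower and 13 higher. Among all genes, the shares were 0.202% lower and 7.66% higher with the former, and 0.236% lower and 52.9% higher with the latter.

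A list of 22 markers of hormone-sensing luminal cells, which holds 8 of the members, contained 8 genes called lower and 0 called higher (median −0.30). Without the members it contained 4 of 14 called lower, with a median of −0.23. These were the surface protein Prom1 (−0.73 ± 0.13), the sodium pump regulator Fxyd2 (−1.07 ± 0.11), the serotonin-synthesizing enzyme Tph1 (−0.55 ± 0.18) and Wnt4. Fxyd2 was at 36.2, 46.2 and 26.3 CPM in WT and at 18.9, 18.9 and 13.5 CPM in mutant glands, without overlap and with a difference of the size of that of Cited1. By contrast, Ly6a (0.035 ± 0.19), the most abundant of the markers, and Xbp1 (0.048 ± 0.098) were not called. In this list 5 genes were called without mouse 2. The split was 2 lower and 1 higher under pan-epithelial scaling, and 2 lower and 5 higher under keratin scaling. By comparison, 0.202% and 0.236% of all genes were called lower under these scalings, and 7.66% and 52.9% higher.

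**Figure D5:**
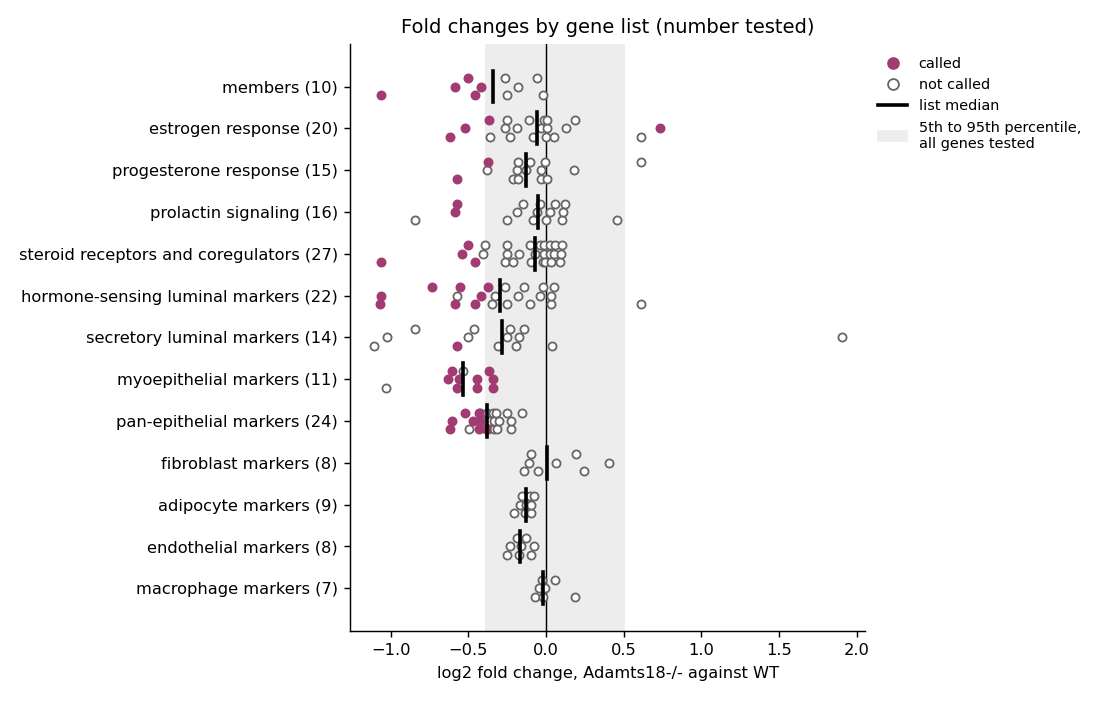
Log2 fold changes (horizontal axis) of the genes of each list, with the number tested in brackets. Filled points were called, black bars are list medians and the gray band spans the 5th to 95th percentile of all genes tested (−0.38 to 0.50). The medians of the members and the epithelial lists lie to the left of 0. So do those of the adipocyte (−0.13) and endothelial (−0.17) lists, whereas those of the fibroblast and macrophage lists lie near 0.

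For 4 members, the 3 genes with the most similar profile over the 6 glands were sought among 11103 genes with a mean log2 CPM of at least 3, by the root mean square difference of centered log2 CPM. Esr1 was followed most closely by Pde8a (0.026), Mmp3 (0.028) and Tmem106a (0.039). For Pgr they were Grasp (0.11), Lipa (0.12) and Cebpb (0.13). The genes nearest to Prlr were the luminal keratin Krt18 (0.065), Slc7a2 (0.075) and the protease inhibitor Spint1 (0.096). Krt18 and Spint1 are among the pan-epithelial markers, and Slc7a2 is in none of the lists. Nearest to Cited1 were C130021I20Rik (0.25), Fgfr2 (0.28) and Scnn1a (0.29), almost as far from it as Prlr, the nearest member (0.30). Such distances depend on how far a profile departs from its own mean. That departure was 0.60 for Cited1, compared with 0.25 for Esr1, 0.35 for Prlr and 0.37 for Pgr. The larger distances of Cited1 hence do not show that its pattern was less matched. Among the members, Prlr and Gata3 were most alike (0.17). These distances describe 6 libraries that share hosts in pairs.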

How the data were processed

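RNA of the 6 glands was sequenced single-end at 85 bp on an Illumina instrument. The authors deposited 1 table of raw read counts per gene symbol, without normalization. The submitters' processing notes list bcl2fastq 2.18, TopHat2 2.0.11, featureCounts 1.6.2, edgeR and the build mm9. The strand setting of the counting is not given in the sources used here, so that reads of overlapping or antisense genes cannot be told apart. Coordinates and exon lengths are from GENCODE M21 (GRCm38), matched by symbol, and promoters from RefSeq (GRCm38.p6).

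Samples were grouped by the labels, and 0 columns belonged to other samples. The edgeR package (4.0.16, under R 4.3.3) served to fit the counts, with TMM factors, the filterByExpr filter, the mouse as a blocking term and the quasi-likelihood test. Benjamini-Hochberg adjustment covered the 17345 genes kept. Standard errors come from the F statistic. Log2 CPM used a prior count of 2, CPM the TMM factors. The mouse numbers are in the labels, the study describes contralateral pairs, and glands of the same mouse deviated together (correlations of 0.512, 0.505 and 0.639 across genes). The scripts were tested on simulated data. Every 2 libraries differed beyond sampling noise (chi-square of their counts per degree of freedom 44.7 or more). The p-values rest on the spread between these pairs, which the edgeR fit moderates across genes.

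Alternatives were limma-voom (limma 3.58.1), DESeq2 1.42.0, an unblocked edgeR fit, scaling by RLE, upper quartile, library size, pan-epithelial or luminal keratin genes, a filter of 10 counts per library or none, omission of each mouse, and other call rules. Intervals are at 95%. Members and lists were chosen with earlier results of these data known, and no list was tested as such. Named genes were all members, each called gene of the 5 pathway lists and the most abundant 2 genes of each, the most abundant gene of each other cell type's markers, the 3 genes most like Esr1, Pgr, Prlr and Cited1, and Adamts18. Areg, Jak2, Stat5b, Socs2, Cish, Cited2, Cited4, Epcam and Cdh1 were added after their values were seen. Of the listed genes, Tff3, Wap and Esr2 did not pass the filter on low counts. A listed gene is not reported here, although the list counts include it.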

Additional observations from a re-analysis of the deposited data

How the results depend on the processing

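Of the 5 calls among the members, that of Cited1 held in each of the 13 alternative fits, and the number of members called stayed at 5 with DESeq2, limma-voom, RLE, upper quartile and library size scaling, both filters and without a threshold on the fold change. The pairing mattered: without the mouse as a replicate block, 2 members were called (Prlr and Cited1), Foxa1, Gata3 and Tbx3 were not (log2 fold changes of −0.47, −0.46 and −0.40), and Greb1 and Tnfsf11 changed sign (0.030 and 0.26). The counts without the block were 2 for estrogen response, 0 for progesterone response, 1 for prolactin signaling, 1 for steroid receptors and coregulators and 3 for hormone-sensing markers. By adjusted p under 0.05, the numbers called were 0 for the members and 0 for each of these lists in the main edgeR fit. Without mouse 3, edgeR gave 1 member (Cited1, adjusted p = 0.00603), 1 coregulator and 2 hormone-sensing markers, among 268 of all genes. Cited1 is in both of these lists. With keratin scaling 0 members passed, and 2057 of all genes did. The lists then held 2 estrogen response genes, 1 progesterone response gene, 1 prolactin signaling gene and 1 hormone-sensing marker. At the unadjusted thresholds, with each mouse left out, the members called ranged from 3 to 5 and estrogen response genes from 2 to 6. Progesterone response genes ranged from 0 to 4 and prolactin signaling genes from 1 to 4. The range was 2 to 5 for coregulators and 5 to 10 for hormone-sensing markers. Of all genes, 2.73%, 1.22% and 1.65% were called lower without mouse 1, 2 and 3, and 1.03%, 1.82% and 3.34% higher.

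Scaling to epithelial genes changed most. With pan-epithelial scaling, 1 member was called, the median of the members was 0.033, and Esr1 (0.36), Greb1 (0.11), Pgr (0.11), Stat5a (0.32) and Tnfsf11 (0.21) changed sign, with 2 estrogen response genes (both higher), 1 progesterone response gene (higher), 1 prolactin signaling gene (higher), 1 coregulator (lower) and 3 hormone-sensing markers (2 lower, 1 higher) called, while 7.66% of all genes were called higher. With keratin scaling, 2 members were called, the median was 0.15, and Esr1 (0.47), Foxa1 (0.034), Greb1 (0.23), Pgr (0.22), Stat5a (0.43), Tbx3 (0.069) and Tnfsf11 (0.32) were above 0. Then 8 estrogen response and 6 prolactin signaling genes (all higher), 14 coregulators (13 higher) and 7 hormone-sensing markers (5 higher) were called, while 9172 genes of 17345 were called higher. The members that differed between host mice by adjusted p numbered 2 with pan-epithelial scaling, 5 with keratin scaling and 2 with no filter. Tnfsf11 was at 0.045 in limma-voom and ranged from −0.77 to 0.20 with each mouse left out, Esr1 from −0.15 to 0.14 and Greb1 from −0.62 to 0.21, both highest without mouse 3. The cause of these changes was not tested. With 3 pairs, 95% intervals as wide as that of Tnfsf11 limit what can be said of weakly expressed members.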
